A study of Mus musculus with 20 samples.

Results

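The aortic response to protons was compared with the response to gamma rays at the 4 highest doses of the series, 100, 125, 150 and 200 cGy. These are 8 of the 20 libraries, 4 proton and 4 gamma, and the libraries of the same dose were taken as a pair. The members were chosen by radiation type and dose alone, and a gene was tested where its mean over the 8 libraries was 5 counts or more, which left 13076 of the 21078 in the table. Each library came from the aorta of 1 adult wildtype male C57BL/6 mouse of 10 to 12 weeks, so no dose was replicated within a radiation type and a pair differs by mouse as well as by radiation. Protons came from a cyclotron beam and gamma rays from a 137Cs source, the whole body was exposed, and the thoracic aorta was taken 4 h later. The reference was the pair at 0 cGy, 1 mouse held in each irradiator without exposure. Differences are given as log2 of proton over gamma, so that a negative value means less RNA after protons.

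Ionising radiation breaks DNA, and the transcription factor p53, which is stabilised by the kinases that sense the breaks, switches on genes for cell cycle arrest, repair, apoptosis and its own restraint. Protons and gamma photons of the same physical dose deposit the same energy per mass but differ in how densely they ionise along a track. The aorta is mostly smooth muscle, lined by endothelium and wrapped in an adventitia of fibroblasts, macrophages and small vessels that borders on fat, so a dissected piece carries several tissues. In bulk RNA, fewer cells of a type and less RNA per cell cannot be told apart.

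The libraries were deposited at a common depth, with 6055666 to 6058006 counts in each of the 10 libraries used here, so counts of a gene can be set side by side directly. Between 16031 and 16603 genes had at least 1 count, and 3 counts, the least taken as detectable, were 4.95e-05% of a library. The floor covers counting error only, because no molecular identifiers mark reads copied from 1 molecule. All 18 smooth muscle and all 15 endothelial markers passed the filter, and the smooth muscle markers summed to between 336155 and 452174 counts in the 8 libraries. The gamma library at 100 cGy stood apart on fat. Its 18 adipocyte markers summed to 57806 counts, against 17737 to 23504 in the other gamma libraries and 14747 to 24775 in the 4 proton libraries. The sham pair was unequal as well, with 40807 counts in the proton and 19673 in the gamma sham. Across 9669 genes, which are not independent, the difference within a pair correlated with GC content at -0.0363 to 0.118 in the 4 pairs, so GC content moved little with radiation type. Because of the fat in that gamma library, fat genes and the lists that moved with it are also given without the pair at 100 cGy.

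Over all genes at these doses the median log2 difference was 0.002, a value that the common depth and the scaling hold near 0. The median size of a difference, regardless of sign, was 0.09 with a median standard error (SE) of 0.12. In edgeR's quasi-likelihood test with dose as a block, 1 gene of 13076 passed an adjusted p of 0.1 (0.00765%), and it was lower after protons. With 3 residual degrees of freedom and 1 mouse per arm, so few calls do not show that the radiation types were alike. At an unadjusted p under 0.05 there were 319 genes higher (2.44%) and 248 lower (1.9%) after protons, together 567 (4.34%). Proton was above gamma in all 4 pairs for 926 genes (7.08%) and below in all 4 for 683 (5.22%). On the counts as deposited, without scaling, these numbers were 737 and 778. Non-overlapping groups were rarer, with 145 genes above (1.11%) and 109 below (0.834%).

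The pairs were far from alike. Among 11319 genes averaging 20 counts or more, 648 differed by more than 2-fold at 100 cGy, and 611 of them were lower in the proton library (5.4%) and 37 higher (0.327%). At 125 cGy the larger share lay on the other side, with 197 genes higher (1.74%) and 100 lower (0.883%), and likewise at 150 cGy, with 228 higher (2.01%) and 65 lower (0.574%). At 200 cGy 37 were higher (0.327%) and 69 lower (0.61%). The unexposed pair had 201 such genes, 152 higher (1.34%) and 49 lower (0.433%) in the proton sham, which was more than the 106 of the pair at 200 cGy. No test was made of single pairs, because each has 1 mouse per arm.

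Cfd was the gene that passed the adjusted threshold. It encodes complement factor D, also called adipsin, a serine protease of the alternative complement pathway that fat cells secrete, and it lies at chr10:79353598-79355401 on the forward strand of mm9. The proton libraries held 1864 counts at 100 cGy, 978 at 125 cGy, 1221 at 150 cGy and 756 at 200 cGy. The gamma libraries of the same doses held 3768, 2045, 3007 and 1498 counts. Each proton library was thus lower than its partner, although the groups overlapped because the proton library at 100 cGy exceeded the gamma library at 200 cGy. The means were 1205 ± 479 (SD, n = 4) and 2580 ± 1008 counts (SD, n = 4). The fitted log2 difference was -1.08 (SE 0.09, adjusted p = 0.0231), and the pairs gave -0.96, -1.09, -1.29 and -0.98 in order of dose.

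The sham pair held 1613 Cfd counts in the proton and 1803 in the gamma mouse, a log2 difference of -0.19. The difference at high doses less that of the sham pair was -0.89 (SE 0.19, adjusted p = 0.717) and did not pass. Cfd also passed without the pair at 100 cGy (log2 difference -1.12, adjusted p = 0.00275) and with a score of the other 17 adipocyte markers in the model (-1.17, adjusted p = 0.0411). The call was lost without the pair at 125 cGy (adjusted p = 0.433) or at 200 cGy (adjusted p = 0.642), without dose as a block (adjusted p = 1) and with all 20 libraries in one fit (adjusted p = 1), while the log2 difference stayed between -1.17 and -1.02 in these and all other alternatives. At 150 cGy the adipocyte markers summed to more in the proton library, 24775 against 22309 counts. Cfd was lower there, and so were the adipocyte markers Adipoq and Retn. That pair has 1 mouse per arm, and the part of fat in the Cfd difference was not tested.

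**Figure D1:**
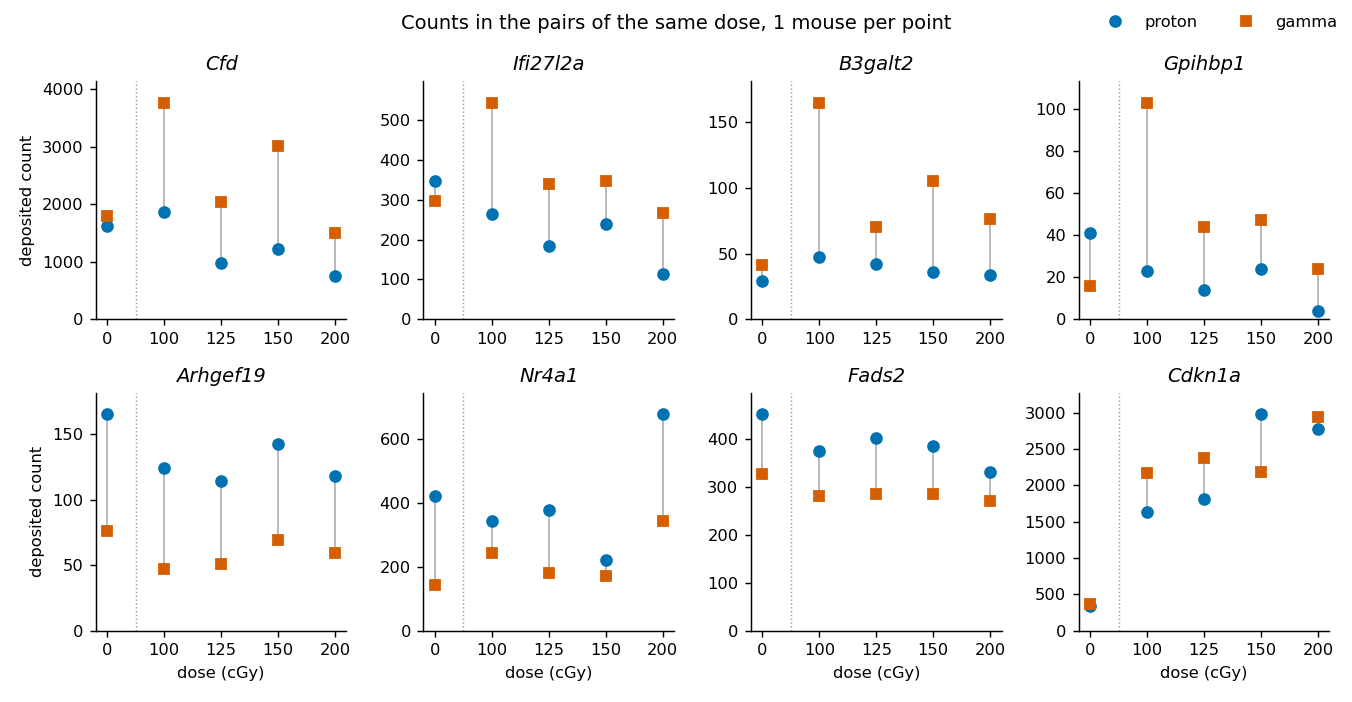
Deposited counts (vertical axes from 0) of 8 genes at each dose in cGy, with 1 mouse per point, proton as blue circles and gamma as orange squares, a grey line joining each pair and the sham pair left of the dotted line. Cfd, Ifi27l2a, B3galt2 and Gpihbp1 were lower in the proton library at all 4 high doses, Arhgef19, Nr4a1 and Fads2 were higher at all 4 and also in the sham pair, and Cdkn1a was far above both shams with no fixed order between the radiation types.

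The 9 further genes with the smallest p on the lower side did not pass after adjustment. Ifi27l2a, an interferon-induced gene, had 264, 184, 238 and 114 counts after protons and 544, 340, 348 and 266 after gamma rays, in order of dose. Its log2 difference was -0.91 (SE 0.11, adjusted p = 0.213), and the sham pair went the other way at 0.19. B3galt2, a galactosyltransferase, had 34 to 47 counts after protons and 70 to 165 after gamma rays, without overlap, with a log2 difference of -1.32 (adjusted p = 0.298) and -0.50 in the sham pair. The groups also did not overlap for the lincRNA A530020G20Rik, with 34 to 53 against 58 to 155 counts and -0.62 in the sham pair.

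Several of these genes are known from fat or from the endothelium of its capillaries. Gpihbp1, which anchors lipoprotein lipase in capillaries, had 23, 14, 24 and 4 counts after protons against 103, 44, 47 and 24 after gamma rays. Its log2 difference was -1.73 (SE 0.28, adjusted p = 0.334), while in the sham pair the proton mouse was higher, 41 against 16 counts. Adrb3, the beta-3 adrenergic receptor of adipocytes, differed by -1.14, and Lgals12, a galectin of adipocytes, by -1.38. Robo4, a guidance receptor of endothelium, had 7 to 23 counts against 18 to 59 (log2 difference -1.39, adjusted p = 0.334). The cyclic nucleotide phosphodiesterase Pde2a, with 24 to 55 counts after protons and 35 to 123 after gamma rays, and the actin-binding Ablim3 (log2 difference -1.18) were also lower in every pair. All of these were measured at counts low enough for a few reads to matter, and the gamma library at 100 cGy, the one with the most fat RNA, was the highest for Gpihbp1, Adrb3, Lgals12, Robo4 and Ablim3. Without the pair at 100 cGy the log2 difference was -1.53 for Gpihbp1, -1.18 for Adrb3, -1.31 for Lgals12, -1.44 for Robo4, -1.01 for Pde2a and -1.05 for Ablim3, with adjusted p-values from 0.191 to 0.243.

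By size of difference, the rule for named genes added Nnat and C1qtnf9. Nnat, a small membrane proteolipid, had 4 to 27 counts after protons and 33 to 109 after gamma rays, a log2 difference of -2.02 with an SE of 0.52 (adjusted p = 0.907). C1qtnf9, an adiponectin-related secreted protein, had -1.36 (SE 0.49), and its pairs ranged from -3.15 at 125 cGy to -0.11 at 200 cGy. C1qtnf9 gave -1.62 without the pair at 100 cGy.

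**Figure D2:**
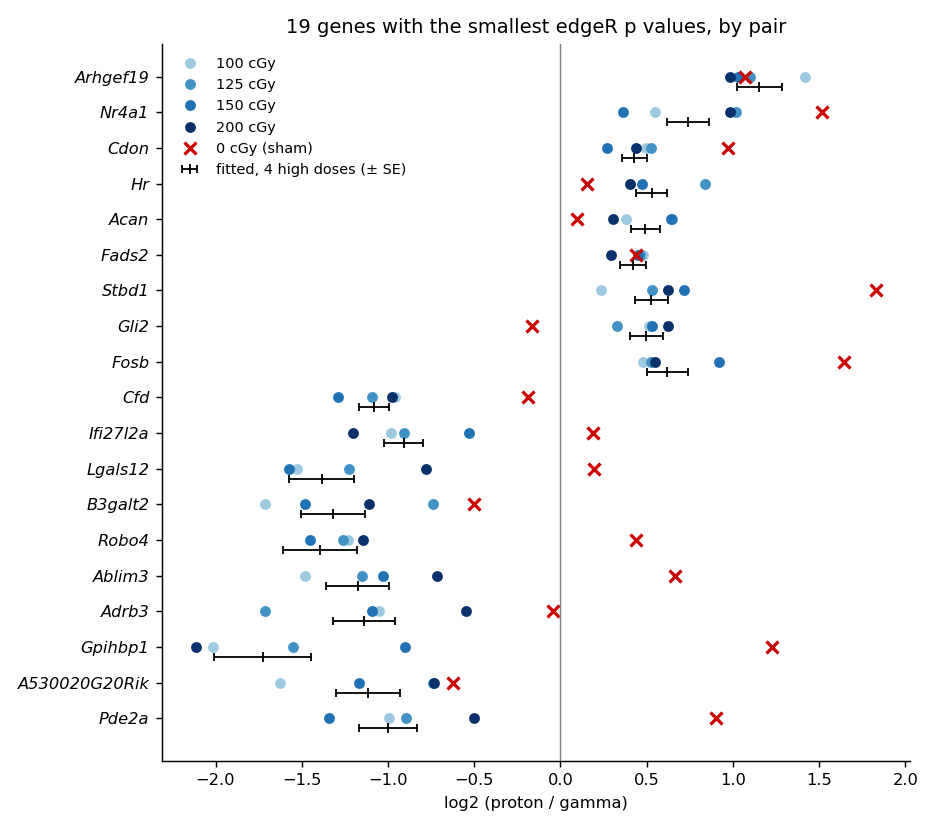
Log2 of proton over gamma (horizontal axis) for 9 genes higher and 10 genes lower after protons among those with the smallest edgeR p, with blue points for the pairs at 100 to 200 cGy, red crosses for the sham pair and black bars for the fitted difference ± SE. The crosses lay on the same side as the points for 8 of the 9 higher genes and for 4 of the 10 lower genes.

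On the higher side the same order was mostly also present in the sham pair, which came from other mice. Arhgef19, a guanine nucleotide exchange factor, had 124, 114, 142 and 118 counts after protons and 47, 51, 69 and 59 after gamma rays. The groups did not overlap, and the log2 difference was 1.15 (SE 0.13, adjusted p = 0.147). The sham pair differed as much, with 165 against 76 counts or a log2 difference of 1.07, and the high-dose difference less the sham difference was 0.07 (SE 0.28). Fads2, a fatty acid desaturase, gave 0.42 at high doses and 0.44 in the sham pair. For the Hedgehog co-receptor Cdon (0.43 against 0.97) and the glycogen-binding Stbd1 (0.53 against 1.83) the unexposed pair differed more than the irradiated pairs. Gli2, a transcription factor of the Hedgehog pathway, was the exception among the plotted genes with the smallest p on this side, with 142 to 221 counts after protons, 103 to 172 after gamma rays and a log2 difference of 0.50 (adjusted p = 0.423), against -0.17 in the sham pair.

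Hr, a nuclear corepressor, and Acan, the proteoglycan aggrecan, had separate groups and small sham differences. Acan had 442 to 635 counts after protons and 347 to 397 after gamma rays, a log2 difference of 0.49 (SE 0.08, adjusted p = 0.334), with 404 and 370 counts in the shams. Hr gave 0.53 (SE 0.09, adjusted p = 0.334) and 0.15 in the sham pair. By size of difference, the rule added Tnfrsf23 at 0.99 (SE 0.23) and the GABA receptor subunit gene Gabrq at 0.91 (SE 0.27). Gabrq was also higher in the proton sham, with 45 against 26 counts or 0.72, and its pair at 200 cGy gave 0.06. Its high-dose difference less the sham difference was 0.15 (SE 0.60). Tnfrsf23, a decoy receptor for a death ligand, had 34 to 68 counts after protons and 14 to 27 after gamma rays, and was opposite in the sham pair, at -0.47.

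Over all genes with an unadjusted p under 0.05, 206 of the 319 higher genes (64.6%) were also higher in the proton sham, against 48.9% of all genes tested. Of the 248 lower genes, 114 (46.0%) were also lower in the proton sham, against 51.1% of all genes. These shares are given as a description, because genes are not independent of each other.

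Immediate early genes, the transcription factors and regulators that cells switch on within minutes of a stimulus, were the list with the most members on the higher side. Of 24 genes tested, 6 had an unadjusted p under 0.05 and were higher after protons (25.0%, against 2.44% of all genes), and 0 were lower by edgeR, with 0 past the adjusted threshold. DESeq2 gave 7 higher and 0 lower at the unadjusted p, while 1.78% of all genes passed in either direction. The median over the list was 0.37, against 0.002 over all genes, and 22 of 24 were above 0, against 50.6% of all genes. The 6 were Nr4a1, Nr4a3, Fosb, Jund, Atf3 and Cyr61. Without the pair at 100 cGy 13 of 24 passed the unadjusted p on the higher side and the median was 0.60, while 7.54% of all genes passed in either direction.

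Genes of this list often carry the core of the cAMP response element, bound by CREB, before their start. The windows of 250 bases before the start of Nr4a1, Fosb and Nr4a3 are shown because these are members with the smallest p whose windows hold such a site. They come from RefSeq on GRCm38.p6, another build than the mm9 of the counts. Capitals mark CGTCA and its reverse complement TGACG, searched on both strands. The windows are chr15:101266596-101266845 on the forward strand, chr7:19310046-19310295 on the reverse strand and chr4:48045055-48045304 on the forward strand.
Nr4a1: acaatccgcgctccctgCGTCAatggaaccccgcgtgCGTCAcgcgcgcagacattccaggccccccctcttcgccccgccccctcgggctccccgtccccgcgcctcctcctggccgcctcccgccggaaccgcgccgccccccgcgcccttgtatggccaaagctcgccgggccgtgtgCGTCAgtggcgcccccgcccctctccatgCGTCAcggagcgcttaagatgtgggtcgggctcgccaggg
Fosb: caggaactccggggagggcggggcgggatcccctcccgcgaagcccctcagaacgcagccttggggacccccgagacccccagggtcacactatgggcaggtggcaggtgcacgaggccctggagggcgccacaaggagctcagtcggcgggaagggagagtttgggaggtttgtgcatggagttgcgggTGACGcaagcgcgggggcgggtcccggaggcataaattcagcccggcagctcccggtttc
Nr4a3: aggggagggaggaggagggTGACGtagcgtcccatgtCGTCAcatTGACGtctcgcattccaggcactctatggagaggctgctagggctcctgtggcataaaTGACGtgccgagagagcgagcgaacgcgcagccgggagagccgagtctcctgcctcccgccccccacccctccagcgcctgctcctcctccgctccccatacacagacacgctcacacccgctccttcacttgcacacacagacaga
Nr4a1 and Nr4a3 hold 4 such cores each and Fosb holds 1. Of the 24 listed genes 19 had a RefSeq window and 14 of them held the motif in a window, compared with 5347 of all 27025 genes with a window (19.8%). Jund held 0 in its window and was also among the 6. A match of letters is a description of the window and not evidence of binding.

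The values behind the list were uneven. Nr4a1, an orphan nuclear receptor, had 343, 378, 221 and 678 counts after protons and 243, 182, 173 and 344 after gamma rays (log2 difference 0.74, SE 0.12, adjusted p = 0.334). Fosb, a partner of Jun in the AP-1 factor, had 109, 120, 116 and 221 counts against 81, 81, 61 and 151. Every proton library was above its partner for both genes, and the groups overlapped. The sham pair was further apart, at 1.52 for Nr4a1 (422 against 143 counts) and 1.65 for Fosb (148 against 45 counts). Cyr61, a matricellular protein gene, likewise had 3797 against 934 counts in the shams and 1755, 982, 1181 and 3383 against 1147, 624, 1184 and 1370 after irradiation. At 150 cGy the Cyr61 counts were level, and the proton library was above only after scaling.

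Nr4a3 behaved differently from its relative. It had 42, 72, 58 and 123 counts after protons and 40, 39, 37 and 66 after gamma rays, a log2 difference of 0.65 (SE 0.18, adjusted p = 0.858), but 57 against 101 counts in the shams. For the list as a whole the medians of the pairs were -0.07 at 100 cGy, 0.55 at 125 cGy, 0.37 at 150 cGy and 0.61 at 200 cGy, and the sham pair gave 0.48. The sham median thus lay within the range of the irradiated pairs, and 18 of 24 genes were higher in the proton sham. The sham pair has 1 mouse per arm, and without the pair at 100 cGy the list median was 0.60. The high-dose difference less the sham difference had an unadjusted p under 0.05 for 6 of 24 genes (4.08% of all genes), 5 of them below 0. Less the difference at the lower doses of the series, it had such a p for 9 of 24 (5.45% of all genes), with directions not counted.

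The share of p53 targets at the unadjusted p lay below or near that of all genes, depending on the fit. With so few genes past it, the counts do not show that p53 targets differed less than other genes. In 5 lists of p53 targets, for feedback, arrest, apoptosis, repair and metabolism, 64 genes were tested together and 0 had an unadjusted p under 0.05 by edgeR, against 4.34% of all genes. With DESeq2 the number was also 0, against 1.78% of all genes. Without the pair at 100 cGy it was 5 (3 higher and 2 lower, 7.81% against 7.54% of all genes), and with the adipocyte score in the model also 5 (4 higher and 1 lower, 7.81% against 6.51%). Their medians lay between -0.01 and 0.06 by list, the differences ranged from -0.39 to 0.45, and 35 of the 64 had higher counts than their own sham in all 8 libraries, compared with 5.2% of all genes. Some of the 64 are also on the study's own lists from these libraries. The smallest p of the 64 was 0.0772, for Trp53inp1. With the pair at 100 cGy left out, the medians by list ranged up to 0.26 for the arrest genes, and the largest shift came with the adipocyte score in the model (0.33 for the arrest genes).

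The clearest set of members is the 19 genes that the study listed as increasing with dose after both radiation types. That list was drawn from these libraries, so its direction over sham is not independent evidence. All 19 were above their own sham in all 8 libraries. Over sham, the median log2 fold of the list was 1.28, 1.39 and 1.83 after protons at 125, 150 and 200 cGy, and 1.11, 1.32 and 1.75 after gamma rays. At 100 cGy it was 1.0 and 1.13. Of the 19, 0 had an unadjusted p under 0.05 between the radiation types by edgeR, against 4.34% of all genes. DESeq2 also gave 0, against 1.78%. The list required a rise after both radiation types, so the likeness between them is not independent evidence either. The median difference was 0.02, with a range from -0.21 to 0.30.

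Cdkn1a, which encodes the cell cycle inhibitor p21, had 345 and 366 counts in the proton and gamma shams. After protons it had 1639, 1809, 2977 and 2777 counts and after gamma rays 2164, 2373, 2188 and 2937, in order of dose. The proton library was lower at 100, 125 and 200 cGy and higher at 150 cGy, and the difference was -0.10 (SE 0.15). With the adipocyte score in the model it was 0.17, so Cdkn1a had no fixed sign. Mdm2, the ubiquitin ligase that restrains p53, differed by 0.07 (SE 0.08), with 473 to 686 counts after protons and 475 to 579 after gamma rays. Ccng1, a cyclin of the same feedback loop, had 1213 to 2516 against 1595 to 2286 counts and a difference of 0.00 (SE 0.11). Bax, which permeabilises mitochondria in apoptosis, gave -0.05 (SE 0.07), and the nuclease Aen gave -0.09 (SE 0.09).

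The members nearest to a difference were Trp53inp1 and Ddit4l. Trp53inp1, a p53 cofactor, had 1024, 1267, 2177 and 1783 counts after protons and 1078, 1759, 2243 and 2175 after gamma rays, lower in all 4 pairs (log2 difference -0.21, SE 0.10, adjusted p = 1). In the sham pair Trp53inp1 was higher in the proton mouse, at 0.23. Ddit4l, an inhibitor of mTOR signalling, had 58, 80, 72 and 109 counts against 58, 61, 64 and 79 (0.27, SE 0.14). Eda2r is a member of the TNF receptor family. At 200 cGy it reached a log2 fold over sham of 3.61 in the proton library and 3.1 in the gamma library. It differed by -0.19 (SE 0.21), or by 0.04 without the pair at 100 cGy.

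**Figure D3:**
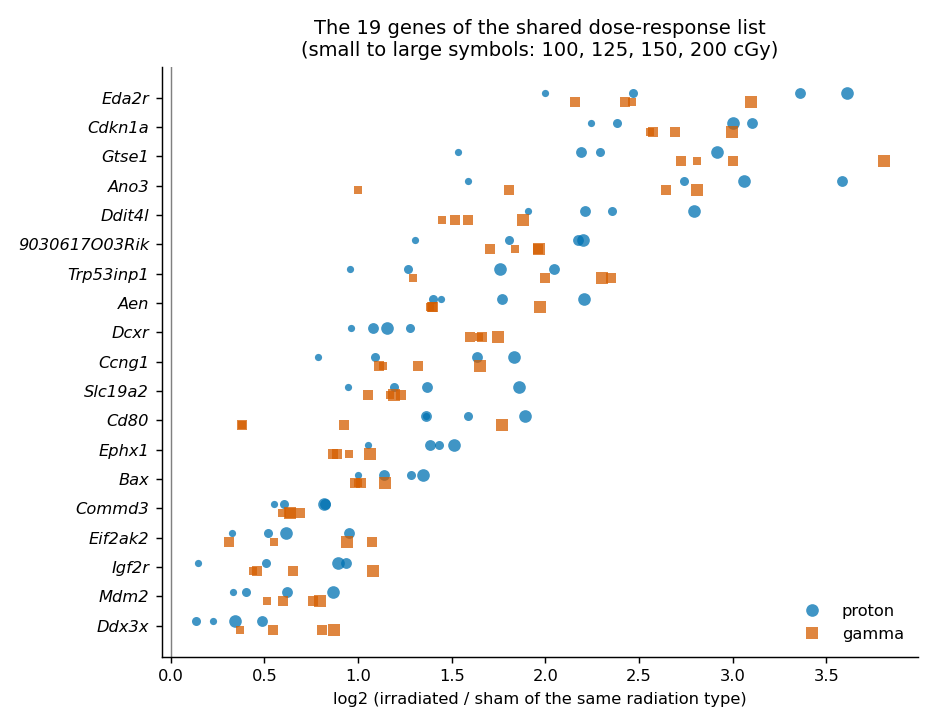
Log2 of the irradiated over the sham count of the same radiation type (horizontal axis) for the 19 genes of the study's shared list, with 1 symbol per mouse, proton as blue circles and gamma as orange squares that grow with dose from 100 to 200 cGy. All symbols lie above 0, and the proton and gamma ranges overlap for most of the genes.

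The genes that the study listed for 1 radiation type only were set out the same way. They too were chosen on these libraries, by their trend with dose, so the direction of their difference is not independent evidence. The trend included the sham libraries, so the sham difference and the test against it are not independent evidence either. Of 175 genes tested from the gamma list, 15 were lower after protons at an unadjusted p under 0.05 (8.57%, against 1.9% of all genes) and 0 were higher by edgeR. DESeq2 gave 6 lower and 0 higher, while 1.78% of all genes passed in either direction. In all 135 lay below 0 (49.4% of all genes did), and the median was -0.08. In the sham pair 151 of the 175 were higher in the proton mouse, with a median of 0.15. The test of the high-dose difference less the sham difference had an unadjusted p under 0.05 for 16 of them (9.14%, against 4.08% of all genes), and 16 were below 0. The 2 shams differed in the median of this list by more than the irradiated groups did, a contrast that the choice of genes by trend favours.

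Within the gamma list, Trp53bp1, which encodes the repair protein 53BP1 that gathers at double strand breaks, had 347, 295, 373 and 408 counts after protons and 385, 431, 527 and 579 after gamma rays. Its difference was -0.42 (SE 0.09, adjusted p = 0.644) with -0.21 in the sham pair. Plcg1, a phospholipase of growth factor signalling, had 512 to 568 against 576 to 674 counts without overlap (-0.19, SE 0.08). The 10 genes listed for protons only gave a median of 0.12 with 9 above 0, and 9 of the 10 were lower in the proton sham. At an unadjusted p under 0.05 there were 0 by edgeR (4.34% of all genes) and 0 by DESeq2 (1.78% of all genes). Gdf15, a stress-induced cytokine of this list, had 3 and 7 counts in the shams, 23, 31, 32 and 59 after protons and 33, 27, 16 and 28 after gamma rays (0.45, SE 0.30).

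Adipocyte markers had the largest median of the lists. All 18 adipocyte markers lay below 0 at high doses, against 49.4% of all genes, with a median of -0.60, and 5 had an unadjusted p under 0.05 on the lower side (27.8%, against 1.9% of all genes). In the sham pair 17 of the 18 were higher in the proton mouse, with a median of 0.96. Without the pair at 100 cGy the median was -0.13 and 14 of 18 were below 0, with 4 lower at the unadjusted p. In that fit 7.54% of all genes passed in either direction. Most of the shift of the list thus came from the pair at 100 cGy. The medians of the pairs were -1.67, -0.65, 0.07 and -0.38.

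The markers did not move as 1 block. Adipoq, the adipocyte hormone adiponectin, had 428, 297, 591 and 247 counts after protons against 1434, 597, 748 and 489 (log2 difference -1.01, SE 0.23, adjusted p = 0.858). Retn, the hormone resistin, had 136, 66, 45 and 55 against 200, 136, 181 and 100 (-1.08, SE 0.24, adjusted p = 0.678). Both were lower in every pair, as Cfd was, and without the pair at 100 cGy they gave -0.77 for Adipoq and -1.31 for Retn. Lipe, the hormone-sensitive lipase, and Plin1, a coat protein of lipid droplets, were lower in the proton library at 100, 125 and 200 cGy and higher at 150 cGy, with differences of -0.43 (SE 0.65) and -0.60 (SE 0.64). These turned to 0.18 for Lipe and 0.08 for Plin1 when the pair at 100 cGy was left out. Lep, the hormone leptin, had 3 counts in the proton library at 125 cGy against 57 in its partner, and a difference of -1.33 (SE 0.56), or -1.12 without the pair at 100 cGy.

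Brown fat markers followed single libraries. Ucp1, the uncoupling protein of brown fat, had 217, 924, 1773 and 158 counts after protons and 2478, 380, 180 and 357 after gamma rays, with 2150 and 472 in the shams. The 13 markers had a median of -0.36, and pair medians from -2.46 at 100 cGy to 1.70 at 150 cGy. At an unadjusted p under 0.05 there were 0 by edgeR (4.34% of all genes) and 0 by DESeq2 (1.78% of all genes). The sham pair gave 1.34. The direction of the list rested on the pair at 100 cGy, since without it the median was 0.36 with 11 of 13 above 0, and 0 at the unadjusted p by edgeR. With the adipocyte score it was 0.64 with 13 of 13 above 0 and 6 higher at the unadjusted p. In that fit 6.51% of all genes passed in either direction.

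**Figure D4:**
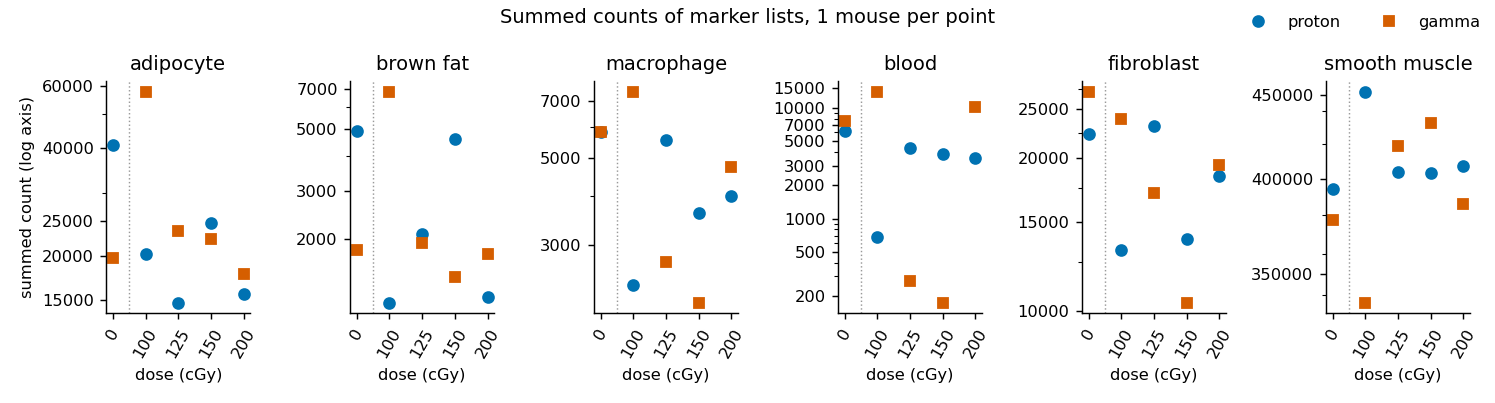
Summed counts of 6 marker lists on log axes at each dose in cGy, 1 mouse per point, proton as blue circles and gamma as orange squares. The gamma library at 100 cGy was the highest of the 8 irradiated libraries for adipocyte, brown fat, macrophage, blood and fibroblast markers and the lowest for smooth muscle, and blood markers differed most between libraries, from 174 to 14014 counts.

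Blood, macrophage, fibroblast and smooth muscle markers swung from pair to pair with no common direction. Blood markers, led by haemoglobin, summed to 678, 4328, 3790 and 3513 counts after protons and to 14014, 274, 174 and 10204 after gamma rays. Hbb-b1, a beta-globin gene, had 338 against 8265 counts at 100 cGy and 2170 against 80 at 150 cGy. Macrophage markers went the same way as blood markers in each pair, with sums of 2377 against 7397 at 100 cGy, 5558 against 2715 at 125 cGy, 3627 against 2140 at 150 cGy and 3999 against 4751 at 200 cGy. Their pair medians were -1.94, 1.82, 1.26 and -0.27, so that the list median of 0.06 averaged opposite differences, and without the pair at 100 cGy it was 0.66. Mertk, a receptor for the clearance of dead cells, was the 1 macrophage marker with an unadjusted p under 0.05, and it was lower in every pair and in the sham pair.

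Fibroblast markers gave pair medians of -0.72, 0.64, 0.55 and -0.14, and smooth muscle markers 0.44, -0.16, -0.05 and 0.12, with a list median of 0.09 that turned to -0.05 without the pair at 100 cGy. The smooth muscle sum was highest in the proton library at 100 cGy, 452174 counts, where the endothelial markers had their lowest sum of the 8 libraries (3672 counts), and lowest in its gamma partner, 336155 counts. The differences past 2-fold at 100 cGy went with these lists, and their part in the count was not tested. Markers of lymphocytes (3 of 18 genes tested), skeletal muscle, cardiac muscle, nerve, mesothelium and of lymph vessel and thymus were in part too low to test. Of those tested, 8 of 9 skeletal muscle and 6 of 7 nerve markers were below 0, against 49.4% of all genes. The skeletal muscle pair medians were 0.41, -0.75, -0.69 and -0.61, with -0.21 in the sham pair. Without the pair at 100 cGy 4 skeletal muscle and 3 nerve markers were lower at the edgeR unadjusted p of 0.05. In that fit 7.54% of all genes passed in either direction.

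**Figure D5:**
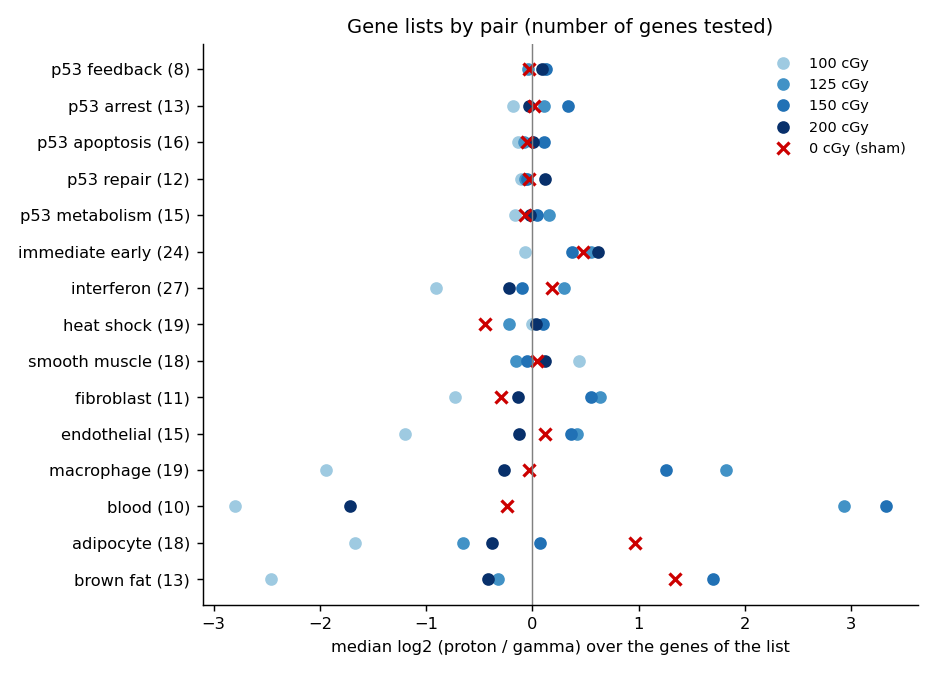
Median log2 of proton over gamma (horizontal axis) over the genes of 15 lists, with the number of genes tested in brackets, blue points for the pairs at 100 to 200 cGy and red crosses for the sham pair. The p53 lists stayed between -0.18 and 0.33 in every pair, immediate early genes were above 0 in 3 of the 4 pairs and in the sham pair, and blood, macrophage and fat lists spread over both sides.

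Interferon-induced genes were lower after protons where they differed. Of 27 tested, 4 had an unadjusted p under 0.05, all lower (14.8%, against 1.9% of all genes), and 0 were higher by edgeR. They were Ifi27l2a, the antiviral Rsad2 and the GTPases Igtp and Gbp3. Igtp had 37, 52, 32 and 29 counts after protons and 119, 64, 61 and 61 after gamma rays, without overlap (log2 difference -0.99, SE 0.22, adjusted p = 0.644). Rsad2 had 7, 9, 15 and 6 against 43, 16, 19 and 18. In the sham pair all 4 genes were higher in the proton mouse. The median of the list was -0.15, and without the pair at 100 cGy it was 0.06. In that fit 2 genes were lower and 1 higher at the unadjusted p, while 7.54% of all genes passed in either direction. The list thus had no direction apart from the pair at 100 cGy. The macrophage sums given above moved with the difference at 100 cGy, and their part was not tested.

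Endothelial genes were divided. Robo4, Cldn5 and Kdr had an unadjusted p under 0.05 on the lower side, 3 of 15 tested (20.0%, against 1.9% of all genes), while 9 of the 15 lay above 0 and the median was 0.05. Without the pair at 100 cGy 3 were lower and 2 higher, with a median of 0.20, and with the adipocyte score 3 were lower and 1 higher. In these fits 7.54% and 6.51% of all genes passed in either direction. Cldn5, a tight junction protein, had 80, 94, 43 and 59 counts after protons and 108, 156, 114 and 72 after gamma rays (-0.70, SE 0.19, adjusted p = 0.858). Kdr, the main receptor for VEGF, had 54, 31, 54 and 46 against 168, 81, 123 and 33, so the pair at 200 cGy went the other way. In the list of VEGF and angiopoietin signalling, 4 of 22 genes passed the unadjusted p and were lower, Kdr, Angpt1, Vegfa and Plcg1 (18.2%, against 1.9% of all genes), and 0 were higher by edgeR. Leaving out the pair at 100 cGy changed the split to 2 lower and 1 higher, and the adipocyte score to 1 lower and 3 higher. The shares of all genes in these fits are those just given. Without that pair Kdr gave -0.78, Angpt1 -0.63 and Vegfa -0.24, none at an unadjusted p under 0.05. Angpt1, a ligand of the receptor Tie2, had 14, 9, 25 and 15 against 61, 27, 26 and 21 counts. Vegfa had 403, 347, 541 and 317 against 674, 482, 485 and 424 (-0.36, SE 0.14, adjusted p = 1).

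Of the 19 chaperones tested, 2 of the endoplasmic reticulum were higher (10.5%, against 2.44% of all genes) and 2 of the cytosol lower (10.5%, against 1.9%) at an unadjusted p under 0.05. Hspa5, the main chaperone of the endoplasmic reticulum, had 5113, 5490, 5778 and 6166 counts after protons and 4725, 3844, 4145 and 4857 after gamma rays, without overlap (log2 difference 0.37, SE 0.09, adjusted p = 0.699). In the shams the order was opposite, with 5684 counts in the proton and 8843 in the gamma mouse. Hsp90b1 of the same compartment differed by 0.27 (SE 0.11). The cytosolic Hspb1, a small heat shock protein, had 2126 to 2796 counts after protons and 2868 to 4520 after gamma rays, also without overlap (-0.53, SE 0.16, adjusted p = 1), and the shams were in the same order. Hsp90aa1 differed by -0.27 (SE 0.12). The median of the list was -0.01. In the test of the high-dose difference less the sham difference, 7 of the 19 had an unadjusted p under 0.05 (36.8%, against 4.08% of all genes), all above 0. The gamma sham stood apart on this list, with a summed count of 57998 against 37451 in the proton sham and 35141 to 43511 in the 8 irradiated libraries.

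In the lists of TGF-beta signalling, elastic fibre, collagen and vascular tone, 0 genes passed the adjusted threshold. Smad3, a signal transducer of TGF-beta, had 256 to 299 counts after protons and 202 to 255 after gamma rays (log2 difference 0.34, SE 0.08, adjusted p = 0.644) and 0.38 in the sham pair. Among 20 collagen genes Col5a1 was higher (5.0%, against 2.44% of all genes) and Col5a3 and Col8a1 lower (10.0%, against 1.9%) at an unadjusted p under 0.05. Col5a3, the chain known from fat, gave -0.56 (SE 0.16) against 1.01 in the sham pair, and -0.50 without the pair at 100 cGy. Emilin1, of the elastic fibre, gave 0.33 (SE 0.08). In the list of vascular tone 3 of 24 genes were higher at the unadjusted p (12.5%, against 2.44% of all genes), the kinase Prkg1, the channel Kcnma1 and the cyclooxygenase Ptgs2, and 0 lower by edgeR. DESeq2 gave 0 in either direction, against 1.78% of all genes, and without the pair at 100 cGy 2 were higher and 3 lower. In the fit without that pair 7.54% of all genes passed in either direction. Ptgs2 differed by 0.27 (SE 0.11) after 1.83 in the sham pair.

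Lists without a member at an unadjusted p under 0.05 by edgeR included 75 ribosomal proteins (median -0.04), 69 subunits of oxidative phosphorylation (median -0.13, 62 of them below 0, against 49.4% of all genes), 48 translation factors, 30 phagosome genes, 22 clock genes, 20 genes of ERK5 and Flt3 signalling, 18 glucocorticoid targets and 18 proliferation genes. Of all genes 4.34% passed, so 0 in the smaller lists is not evidence of likeness between the radiation types. DESeq2 gave 0 in each of these except for 2 glucocorticoid targets, against 1.78% of all genes. The subunits of oxidative phosphorylation were the reverse in the sham pair, where 62 of 69 were above 0, against 48.9% of all genes. Their pair medians ran from -0.50 at 100 cGy to 0.26 at 150 cGy. The median turned to 0.04 without the pair at 100 cGy, with 48 of 69 above 0. With the adipocyte score it was 0.15, with 65 of 69 above 0 and 9 higher at the unadjusted p. In that fit 6.51% of all genes passed in either direction. The glucocorticoid targets had a median of -0.12, or 0.13 with the adipocyte score. Of the remaining lists, the integrated stress response had 1 of 18 genes higher (Ppp1r15a, 0.30), antioxidant genes 1 of 28 (Srxn1, 0.35, without overlap) and adhesion molecules and chemokines 1 of 13 (Ccl19, at 2 to 12 counts). These were 5.56%, 3.57% and 7.69% of the lists, against 2.44% of all genes, and 1.11% of all genes had the 4 proton libraries above all 4 gamma libraries as Srxn1 did.

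The difference at high doses was tested against that of the sham pair, which assumes that the sham pair varies as the other pairs do. In this test 0 genes passed the adjusted threshold (0.0%) by edgeR and 12 by DESeq2, and 533 had an unadjusted p under 0.05 (4.08%), 257 above 0 (1.97%) and 276 below (2.11%). Without TMM scaling the split was 205 and 340. Mlxipl, which encodes a glucose-responsive transcription factor of fat and liver, came first. It had 268, 119, 152 and 114 counts after protons and 438, 197, 247 and 136 after gamma rays, while the shams had 457 and 155. Its high-dose difference less the sham difference was -2.12 (SE 0.23, adjusted p = 0.206). The hexokinase Hk2 (-2.08), the glucose transporter Slc2a4 (-1.50) and Obfc2a (-2.37) followed, with Stbd1 (-1.31). In all 5 genes the proton sham was far above the gamma sham, by 1.18 to 1.85 on the log2 scale, as it was for the summed adipocyte markers. The sham pair enters this test directly, so a large sham difference is part of what ranked these genes. Slc2a4 is itself on the list of adipocyte markers.

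The same difference was tested against that at the 5 doses of 5 to 75 cGy, where 0 genes passed the adjusted threshold (0.0%) by edgeR and 712 had an unadjusted p under 0.05 (5.45%), 361 above 0 (2.76%) and 351 below (2.68%), or 208 and 477 without TMM scaling. Ly6c1, a surface protein of endothelium and monocytes, had 219, 275, 166 and 139 counts after protons and 316, 270, 284 and 190 after gamma rays. Its high-dose difference less that at lower doses was -1.05 (adjusted p = 0.796). Gal3st3 gave 0.79, Wscd2 0.63 and the transcription factor Creb3l1 0.51, all with the same adjusted p.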

How the data were processed

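Aortic RNA of 20 mice was sequenced from polyA-selected TruSeq libraries, and the 8 libraries at 100 to 200 cGy were used here with the sham pair and, for 1 test, the 10 libraries at 5 to 75 cGy. Per the labels and the study's methods, the authors called bases with CASAVA 1.8.1, aligned reads of 100 bases to mm9 with STAR 2.5.2a and brought the libraries to a common depth by resampling in PORT. The deposited values are sense-strand read counts per gene, whole numbers with 6055666 to 6058006 per library, and were used unchanged. Resampling equalises depth, so sequencing yield cannot be seen in the counts. Gene positions are from GENCODE M1, whose build is mm9.

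Genes averaging 5 or more counts in the 8 libraries were fitted in edgeR 4.0.16 (TMM, robust quasi-likelihood, two-sided) with dose as a block and radiation type, which leaves 3 residual degrees of freedom. Adjusted p-values are by Benjamini-Hochberg over all genes tested, with a threshold of 0.1. Interaction terms compared the high-dose difference with that of the sham pair (10 libraries) and with that at 5 to 75 cGy (18 libraries). Pair differences are log2 CPM with a prior count of 2. The p-values measure the spread between pairs of mice, and 1 mouse per dose and radiation type does not separate mouse from treatment. Named genes are the 10 per direction with the smallest p, among genes averaging 20 counts or more with 1 direction in all 4 pairs, the 5 per direction with the largest difference at an unadjusted p under 0.05, the 5 with the smallest p of each interaction, genes past the adjusted threshold, and members of the lists.

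The comparison, the named-gene rule and the lists were chosen with earlier results of these data known. Alternatives were DESeq2 1.42.0, limma 3.58.1, no TMM scaling, a looser filter (1 count over the 8 libraries) and a stricter one (mean of 50), no dose block, all 20 libraries in one fit, a brown fat score, GC and length offsets and leaving out each pair. The adipocyte score as a covariate and the counts of list members and the values of list genes under alternatives were added after the data were seen. In edgeR fits tested on simulated data, the share of false calls was above the threshold of 0.1 for the high-dose difference and for its difference from the sham pair. R 4.3.3 ran the fits, and Python 3.11.15 with pandas 2.3.3, numpy 2.4.6 and matplotlib 3.10.9 the summaries and plots. Antisense and intron reads and the RT-PCR data were not used here. Some genes that meet the naming rule are not reported here.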

Additional observations from a re-analysis of the deposited data

Results flagged for a closer look

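Within the 4 proton and the 4 gamma libraries, 192 groups of 4 values were examined for a library far from the other 3, for the genes chosen by rank, the list members named in the text and the summed counts of marker lists, and 19 were set apart. For independent groups of 4 like replicates the rule would flag about 1 in 20. Each group here holds 4 different doses, and groups share libraries, so that share is no measure for the 19. Of the 19, 10 were high values of the gamma library at 100 cGy. These were the summed adipocyte markers (57806 counts) and brown fat markers (6849), Acly (2313), Thrsp (1907), Lipe (1355), Plin1 (959) and Ucp1 (2478), all known from fat, the interferon-induced Igtp (119) and Rsad2 (43), and Angpt1 (61).

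At 200 cGy the gamma library was high for Aen (634 counts, with 420 to 425 in the other 3) and Nr4a3 (66) and low for C1qtnf9 (11) and for the summed nerve markers (1556), and the proton library was high for Fosb (221). The smooth muscle markers summed to 452174 counts in the proton library at 100 cGy, with 403220 to 407139 in the other proton libraries, and Hbb-b1 was low there (338 counts, with 2101 to 2455 in the others). The glucocorticoid targets Fkbp5 and Tsc22d3 were each high in 1 library, Fkbp5 in the gamma library at 125 cGy (323 counts) and Tsc22d3 in the proton library at 150 cGy (515 counts).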

How the results depend on the processing

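The number of genes past the adjusted p of 0.1, 1 in the reported fit, was 16 with DESeq2, 20 with all genes of at least 1 count, 96 with the brown fat score and 0 with all 20 libraries in one fit. Leaving out 1 pair gave 0 to 9 genes. Without the dose block, that is without pairing, it was 0, and 174 genes instead of 319 were higher at the unadjusted p of 0.05. Deviations from the group means correlated between libraries of the same dose at -0.10, 0.12, 0.11 and 0.47 across genes in order of dose, and only at 200 cGy was the same-dose gamma library the closest.

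The 319 higher genes became 95 with DESeq2, 550 with the brown fat score and 515 with the adipocyte score, and 170 to 518 without 1 pair. The 248 lower genes became 138 with DESeq2, 462 with the brown fat score and 171 to 468 without 1 pair, the highest for the pair at 100 cGy, whose removal also gave the 518. For the difference from the sham pair, leaving out the pair at 100 cGy gave 8 adjusted calls, 408 genes above 0 and 432 below, and DESeq2 gave 12, 64 and 106. For the difference from lower doses, it gave 224 above and 211 below, and library sizes without TMM gave 208 above. Genes of 1 direction in every pair became 1896 higher and 1871 lower with only 3 pairs to meet. At a mean count of at least 50, 126, 409, 147, 159 and 59 genes passed 2-fold at 0, 100, 125, 150 and 200 cGy, with fewer genes counted. With the adipocyte score, list medians moved to 0.13 for p53 feedback, 0.33 for p53 arrest, 0.16 for p53 apoptosis, 0.14 for the shared list and 0.15 for TGF-beta, and p53 arrest was 0.26 without the pair at 100 cGy. The cause of these shifts was not tested. The other 203 summary values moved by less than 1.5 times (counts) or less than the SD of the pair medians (list medians), which for many lists spans 0. Of 40 list medians, 8 changed sign without the pair at 100 cGy, 12 with the adipocyte score, 2 without TMM and 2 with GC and length offsets. Among them, mesothelial markers went from -0.52 to 0.39 without that pair and to 1.02 with the score. Of the 34 genes named by rank, 0 reversed in 503 values, and 448 kept their side of the threshold. Most of these genes were chosen for 1 direction in every pair, so the lack of reversals follows largely from that choice. Of the 49 list members also named, 9 reversed in 24 of 730 values, namely Cdkn1a, Aen, Eda2r, Ccng1, Ucp1, Tsc22d3, Hbb-b1, Lipe and Plin1, 0 of them past the adjusted p there, and 10 values passed the adjusted p. Cfd was lost in 4 of its alternatives, without the dose block, with all 20 libraries, and without the pair at 125 or at 200 cGy. With 3 residual degrees of freedom, small differences at low counts were not detectable.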
